A study of Homo sapiens with 12 samples.

Results

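The EGF receptor family is described here through 10 listed genes: the receptors EGFR, ERBB2 and ERBB3, the receptor inhibitor ERRFI1, and the ligands TGFA, AREG, EREG, HBEGF, BTC and NRG1. Members were taken by symbol, using every probe set of the array that the platform annotation gives that symbol alone. This gave 35 probe sets for 9 of the 10 genes, out of 54613 probe sets that are not controls and 19775 genes in all. AREG has no value here, because the annotation used gives no probe set that symbol alone. Probe sets with several symbols were not used.

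RNA from the human non-small cell lung cancer line NCI-H1299 was measured on 12 Affymetrix expression arrays, in 4 groups of 3 that the titles call biological replicates. The groups were xenograft tumours grown from spheroid cells, xenograft tumours grown from parental cells, spheroid cells cultured in stem-cell medium, and parental cells cultured in serum-containing medium. All 4 groups come from 1 line, so they are no sample of lung cancers. The sources used here do not give the host animal, how many animals bore the tumours, or whether EGF was added to either medium. The p-values therefore test differences between group means against the spread of these samples alone, and some of that spread may be technical.

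The receptors of this family sit in the cell membrane and pair when a ligand binds, which switches on their tyrosine kinases and, through Ras, the ERK cascade and the PI3 kinase pathway. Ligands are made as membrane-bound precursors and released by ADAM proteases. EGFR binds TGFA, AREG, EREG, HBEGF and BTC, while ERBB3, whose own kinase is weak, binds NRG1 and signals with ERBB2, which has no known ligand. ERRFI1 is made in response to receptor signalling and binds the kinase domains of the family to shut them off. In lung cancer the family is known for activating EGFR mutations and the inhibitors directed at them, whereas NCI-H1299 carries a mutated NRAS.

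Deposited values are log2 expression levels, so a difference of 1 is a doubling. Each gene stands for its brightest probe set, by the mean of all 12 arrays, and levels were compared between groups but not between genes. A gene was called where limma gave it a p under 0.05 after Benjamini-Hochberg adjustment across the 19775 genes. Parental culture held both ends of the range of spread, with interquartile ranges of 2.82 log2 units on replicate 1 and 3.44 on replicate 2. The median SD per gene was 0.156 in spheroid xenografts, 0.199 in parental xenografts, 0.186 in spheroid culture and 0.316 in parental culture. Of 9 markers chosen for the line, VIM (mean 14.16 to 14.68 over the groups) and KRT18 (10.85 to 12.56) were highest. EPCAM and CDH1 lay below the lower quartile of all values on every array. KRT8 (7.19 to 8.96), KRT19, NKX2-1, SFTPB and SFTPC lay below it on no array. The endothelial marker PECAM1 and the myeloid marker AIF1 also lay below it on no array, cultures included. A reading above the lower quartile therefore does not show expression in the line. In culture limma called 1 of the 9, lower in spheroid cells (2.46% of all genes were called). For parental cells it called 2, lower in xenografts than in culture (3.47% of all genes).

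Of the 9 measured genes, ERRFI1 and ERBB3 were called in at least 1 comparison. In culture 1 of 9 was called, higher in spheroid cells, where 2.46% of all genes were called, 0.885% higher and 1.58% lower. For parental cells 2 of 9 were called, both higher in xenografts than in culture, where 3.47% of all genes were called, 2% higher and 1.48% lower. Between spheroid and parental xenografts limma called 0 of 9 (0.233% of all genes), with 2 at an unadjusted p under 0.05. For spheroid cells in xenografts against culture it called 0 of 9 (0.0202% of all genes), again with 2 at an unadjusted p under 0.05. For the interaction, which sets the spheroid to parental difference of the xenografts against that of the cultures, it called 0 of 9 (0.137% of all genes), with 2 at an unadjusted p under 0.05. The share of all genes at an unadjusted p under 0.05 is not given, here or for the markers and lists below. Such counts therefore cannot be read as more than that share. Median differences of the 9 genes were 0.17 in culture, 0.035 between xenografts, 0.012 for parental cells and -0.12 for spheroid cells, beside medians of 0.070, 0.019, -0.0091 and -0.047 over all genes. The comparisons share arrays: parental culture is the baseline of both comparisons with calls.

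**Figure D1:**
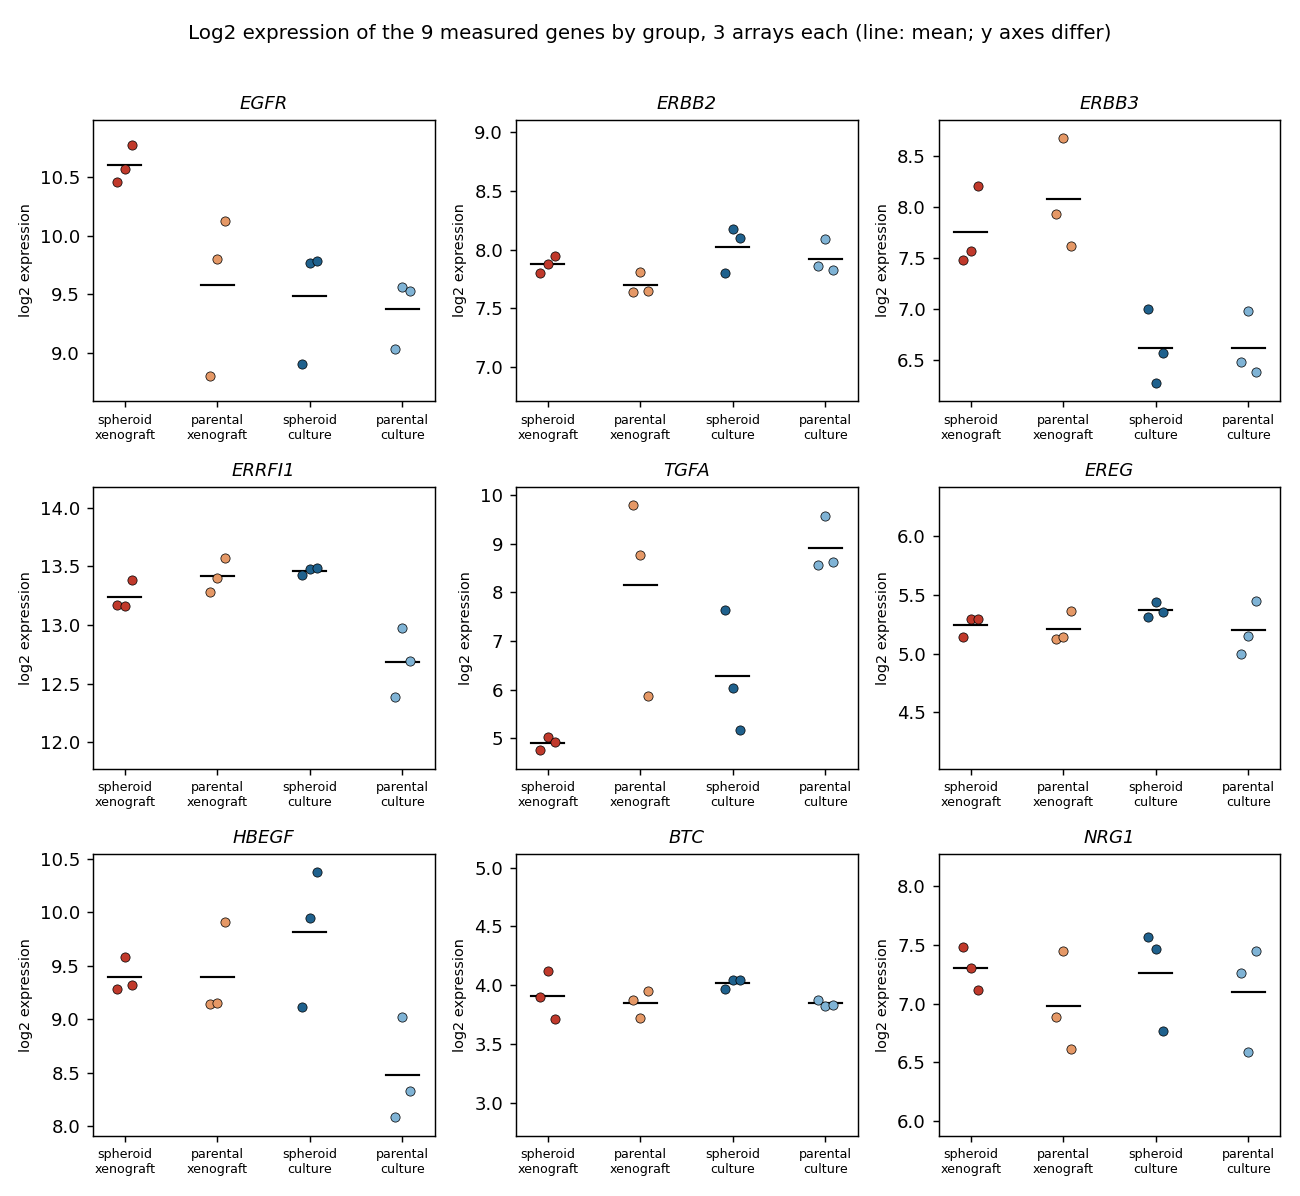
Log2 expression of the 9 measured genes (y axis, scaled separately for each gene) in the 4 groups (x axis), with a point for each of 3 arrays and a line at the group mean. ERRFI1 and HBEGF were lowest in parental culture, ERBB3 was higher in both kinds of xenograft than in either culture, and EGFR was highest in spheroid xenografts.

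ERRFI1, the inhibitor, was measured by 1 probe set and was among the brightest on the arrays, above at least 99.1% of all probe sets on each. It read 13.17, 13.16 and 13.38 in spheroid xenografts and 13.28, 13.40 and 13.57 in parental xenografts. In spheroid culture it read 13.42, 13.48 and 13.49, and in parental culture 12.38, 12.97 and 12.69. Every one of the other 9 arrays lay above the 3 parental cultures, and the 3 groups of the others lay close together. In culture ERRFI1 rose to 13.46 ± 0.035 in spheroid cells, against 12.68 ± 0.29 in parental cells (SD, n = 3 arrays each), a difference of 0.78 (SE 0.16, 1.72-fold, limma adjusted p = 0.0278). For parental cells it rose to 13.42 ± 0.15 in xenografts, against 12.68 ± 0.29 in culture, by 0.73 (SE 0.16, 1.66-fold, limma adjusted p = 0.0297). These are bulk samples, in which more cells of a type and more RNA per cell cannot be told apart. In the xenografts any RNA of host cells was not separated from that of the line.

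For spheroid cells ERRFI1 averaged 13.24 ± 0.12 in xenografts and 13.46 ± 0.035 in culture (SD, n = 3 arrays each), a difference of -0.22 (SE 0.16, 95% interval -0.57 to 0.13, limma adjusted p = 0.859), although all 3 xenografts read below all 3 cultures. Between spheroid and parental xenografts the difference was -0.18 (SE 0.16, 95% interval -0.53 to 0.18). The interaction was -0.96 (SE 0.23, limma adjusted p = 0.169) and was not called, so it was not shown that the spheroid to parental difference changes between culture and tumour. Without parental culture replicate 2 it was -1.10 and was called (adjusted p = 0.0357; range over all alternatives 0.0357 to 0.464).

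Both calls of ERRFI1 depended on single arrays and on the scaling. In culture the call was lost without parental culture replicate 3 (adjusted p = 0.0724), spheroid culture replicate 2 (0.125), spheroid culture replicate 3 (0.101) or spheroid xenograft replicate 2 (0.0502), and without parental culture replicates 1 and 2 together (0.0711). It was also lost after median centring (0.0735) and with eBayes set to trend and robust (0.0511). With only the groups compared it was lost too (0.189), and the range over all alternatives was 0.00916 to 0.243. For parental cells it was lost when any of 8 arrays was left out, namely parental culture replicates 1 and 3, spheroid culture replicate 2, each of the 3 parental xenografts and spheroid xenograft replicates 1 and 2 (adjusted p 0.0504 to 0.101). Quantile normalisation again lowered the difference to 0.50 (adjusted p = 0.0695) and cyclic loess to 0.46 (0.112), and median centring gave 0.73 (0.0614). The call was also lost with eBayes set to trend and robust (0.0571) and with only the groups compared (0.222). Without parental culture replicates 1 and 2 together the difference was 0.73. For parental cells the call held in 9 of 24 alternatives, over which the adjusted p ran from 0.00630 to 0.411.

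HBEGF, the heparin-binding ligand of EGFR and ERBB4, ordered the groups as ERRFI1 did. Its brightest probe set read 9.28, 9.58 and 9.32 in spheroid xenografts and 9.14, 9.15 and 9.90 in parental xenografts. Readings were 9.12, 9.94 and 10.37 in spheroid culture and 8.08, 9.02 and 8.33 in parental culture. The 3 parental cultures again lay below the other 9 arrays, and the other groups overlapped. In culture HBEGF averaged 9.81 ± 0.64 in spheroid cells and 8.48 ± 0.49 in parental cells (SD, n = 3 arrays each), a difference of 1.33 (SE 0.33, 2.52-fold, limma adjusted p = 0.0578), just outside the threshold. It was called without spheroid culture replicate 1 (1.68, adjusted p = 0.0149), without parental culture replicate 2 (1.61, 0.0211), after quantile normalisation again (0.00913), after cyclic loess (0.0138), with dim genes left out (0.0405) and with the replicate number as a block (0.0374). The mean of its 4 probe sets gave a lower difference, 0.65, which was called (0.0361; range over all alternatives 0.00913 to 0.226).

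For parental cells HBEGF averaged 9.40 ± 0.44 in xenografts and 8.48 ± 0.49 in culture (SD, n = 3 arrays each), a difference of 0.92 (SE 0.33, limma adjusted p = 0.186), called only without parental culture replicate 2 (1.19, 0.0454; range over all alternatives 0.0454 to 0.513). For spheroid cells the difference was -0.42 (SE 0.33), between xenografts it was -0.0034 (95% interval -0.72 to 0.71), and the interaction was -1.34 (SE 0.47, limma adjusted p = 0.446). A second HBEGF probe set, 38037_at, gave 1.10 in culture (SE 0.32, adjusted p = 0.147 over all probe sets) and 0.77 for parental cells (SE 0.32), close to the first. The other 2 probe sets of the gene were dimmer and differed by at most 0.22 in either direction in these 4 comparisons.

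ERRFI1 and HBEGF are shown by their promoters because both had their lowest levels in parental culture, apart from the other 3 groups. The sequences run from 250 bases before to 50 after the start of the gene, from RefSeq on GRCh38.p14, 5′ to 3′ on the strand of the gene. Capitals mark a match to any of 4 motifs searched on both strands: TGANTCA, bound by AP-1, TGACGTCA, the cAMP response element, and ACGTG and GCGTG, the core of hypoxia response elements.
ERRFI1 (chr1:8026260-8026559, minus strand): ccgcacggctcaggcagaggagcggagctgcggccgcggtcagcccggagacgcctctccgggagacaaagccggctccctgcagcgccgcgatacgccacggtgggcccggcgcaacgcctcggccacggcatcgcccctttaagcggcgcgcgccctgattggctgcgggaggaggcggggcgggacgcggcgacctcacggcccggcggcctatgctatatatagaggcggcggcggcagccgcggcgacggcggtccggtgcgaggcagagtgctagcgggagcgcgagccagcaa
HBEGF (chr5:140346554-140346853, minus strand): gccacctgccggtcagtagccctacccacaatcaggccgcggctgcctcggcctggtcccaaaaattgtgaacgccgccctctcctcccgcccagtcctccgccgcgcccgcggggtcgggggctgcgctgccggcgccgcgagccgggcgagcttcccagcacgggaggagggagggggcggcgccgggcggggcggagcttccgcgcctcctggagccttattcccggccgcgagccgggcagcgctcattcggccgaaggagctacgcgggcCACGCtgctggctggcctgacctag
The ERRFI1 window held 0 matches, and the HBEGF window held 1, to GCGTG, which 36.5% of all 35116 promoters of this length hold. TGANTCA stood in 7.71% of all promoters, TGACGTCA in 1.85% and ACGTG in 21.4%. Of the 10 windows that matched 8 members, TGANTCA was found in 1 of EGFR, where it occurred at 2 places, and in that of ERBB2. TGACGTCA was found in that of AREG, ACGTG in that of EREG, and GCGTG in 5, of TGFA, AREG, EREG, HBEGF and BTC.

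Among the receptors ERBB3, the receptor for NRG1, was higher in tumours. Its brightest probe set read 7.48, 7.57 and 8.20 in spheroid xenografts and 7.93, 8.68 and 7.62 in parental xenografts. The readings were 7.00, 6.28 and 6.57 in spheroid culture and 6.49, 6.98 and 6.39 in parental culture. All 6 xenografts lay above all 6 cultures, while the 2 kinds of xenograft overlapped, as did the 2 kinds of culture. For parental cells ERBB3 rose to 8.08 ± 0.54 in xenografts, against 6.62 ± 0.32 in culture (SD, n = 3 arrays each), by 1.46 (SE 0.30, 2.75-fold, limma adjusted p = 0.0215). For spheroid cells it averaged 7.75 ± 0.39 in xenografts and 6.61 ± 0.36 in culture, a difference of 1.14 (SE 0.30, 2.20-fold, limma adjusted p = 0.228), which was not called.

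A second probe set, 202454_s_at, moved likewise: 1.30 for parental cells (SE 0.25, adjusted p = 0.0244 over all probe sets, of which 2.34% were called) and 0.79 for spheroid cells (SE 0.25, adjusted p = 0.339). The other 3 ERBB3 probe sets differed by between -0.18 and 0.072 in both comparisons. Between spheroid and parental cells ERBB3 differed by -0.0053 in culture (95% interval -0.65 to 0.64) and by -0.32 in xenografts (95% interval -0.97 to 0.32). The interaction of -0.32 (SE 0.42) does not show that the change differs between the 2 kinds of cell. For parental cells the call was lost without parental culture replicate 3 (1.34, adjusted p = 0.0934) or parental xenograft replicate 2 (1.16, 0.0823). It was also lost with the mean of all 5 probe sets (0.52, 0.0644) and with only the groups compared (1.46, 0.115). The same held without parental culture replicates 1 and 2 together (1.69). Over all alternatives the adjusted p ran from 0.00945 to 0.115, and the call was kept in 18 of 24. For spheroid cells same-numbered arrays of the 2 groups deviated together, and with the replicate block fitted to those 6 arrays ERBB3 was called (1.14, adjusted p = 0.0419), whereas with the block over all 12 arrays it was not.

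Of 9 markers of fibroblasts, limma called 2 for parental cells (3.47% of all genes), both higher in xenografts. For spheroid cells it called 0 (0.0202% of all genes), and 1 had an unadjusted p under 0.05. It called 1 of the 9 lower in spheroid than in parental xenografts (0.233% of all genes) and 1 for the interaction (0.137%). Of the endothelial, myeloid, keratinocyte and erythroid markers it called 0 in any comparison. The median difference of the 9 fibroblast markers was 0.16 for parental cells and -0.0091 for spheroid cells. Those called for parental cells were COL3A1, a fibrillar collagen (7.29 ± 0.88 in xenografts and 5.23 ± 0.077 in culture), and the protease FAP (7.27 ± 0.43 in xenografts and 5.07 ± 0.33 in culture; SD, n = 3 arrays each). The mean of the 9 markers ran from 6.22 to 6.76 on the parental xenograft arrays and from 5.70 to 6.12 on the parental culture arrays, and LUM lay below the lower quartile on all 12 arrays. On the spheroid arrays that mean ran from 6.24 to 6.31 in xenografts and from 6.03 to 6.19 in culture. Their part in the ERBB3 result was not tested, nor was whether host cells gave any of the xenograft signal of these markers or of ERBB3. Over the 12 arrays the genes with the pattern closest to ERBB3 were VEGFC (Pearson r = 0.954, Spearman rho = 0.937), EDIL3 (r = 0.949, rho = 0.951) and COL3A1 (r = 0.931, rho = 0.846). For ERRFI1 they were MGST3 (r = 0.975, rho = 0.923), GPAT2 (r = 0.959, rho = 0.839) and MEAF6 (r = 0.958, rho = 0.888). These values describe 12 arrays that share 4 groups, and were picked as the highest of all genes.

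EGFR, the receptor for most of these ligands, was highest in spheroid xenografts. Its brightest probe set, 201983_s_at, read 10.46, 10.56 and 10.78 in spheroid xenografts and 8.80, 9.80 and 10.13 in parental xenografts. Spheroid culture read 8.91, 9.77 and 9.79, and parental culture 9.04, 9.56 and 9.53. The spheroid xenografts stood above the other 9 arrays, and the other 3 groups overlapped. EGFR averaged 10.60 ± 0.16 in spheroid xenografts and 9.58 ± 0.69 in parental xenografts (SD, n = 3 arrays each), a difference of 1.02 (SE 0.33, 2.03-fold, limma adjusted p = 0.323). Against spheroid culture (9.49 ± 0.50) the spheroid xenografts differed by 1.11 (SE 0.33, 2.16-fold, limma adjusted p = 0.320), called only with the replicate block fitted to those 6 arrays (adjusted p = 0.0205; range over all alternatives 0.0205 to 0.939).

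The EGFR probe sets did not move alike. Probe set 224999_at gave 0.94 between spheroid and parental xenografts (SE 0.32) and 1.01 for spheroid cells in xenografts against culture (SE 0.32), close to 201983_s_at, and neither was called over all probe sets (adjusted p = 0.523 and 0.341). Probe set 201984_s_at gave 0.26 and -0.16 in the same comparisons (SE 0.24 each). For spheroid cells 4 of the 9 EGFR probe sets were higher in xenografts and 5 lower, from -0.33 to 1.11. Probe set 1565483_at read 11.45 on parental culture replicate 1 and from 6.42 to 8.11 on the other 11 arrays, and its partner 1565484_x_at read 10.52 there and at most 7.46 elsewhere, while 201983_s_at was no higher on that array than on its replicates. This is the array with the narrowest interquartile range, 2.82, and whether that bears on the reading was not tested.

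ERBB2, the partner of ERBB3, varied least among the receptors. It averaged 7.87 ± 0.072 in spheroid xenografts, 7.70 ± 0.096 in parental xenografts, 8.03 ± 0.20 in spheroid culture and 7.92 ± 0.14 in parental culture (SD, n = 3 arrays each). Neighbours in that order of levels overlapped throughout. For parental cells all 3 xenografts read below all 3 cultures, with a difference of -0.23 (SE 0.14, 95% interval -0.54 to 0.085, limma adjusted p = 0.585). The other 3 differences of groups lay between -0.15 and 0.18 (SE 0.14 each).

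**Figure D2:**
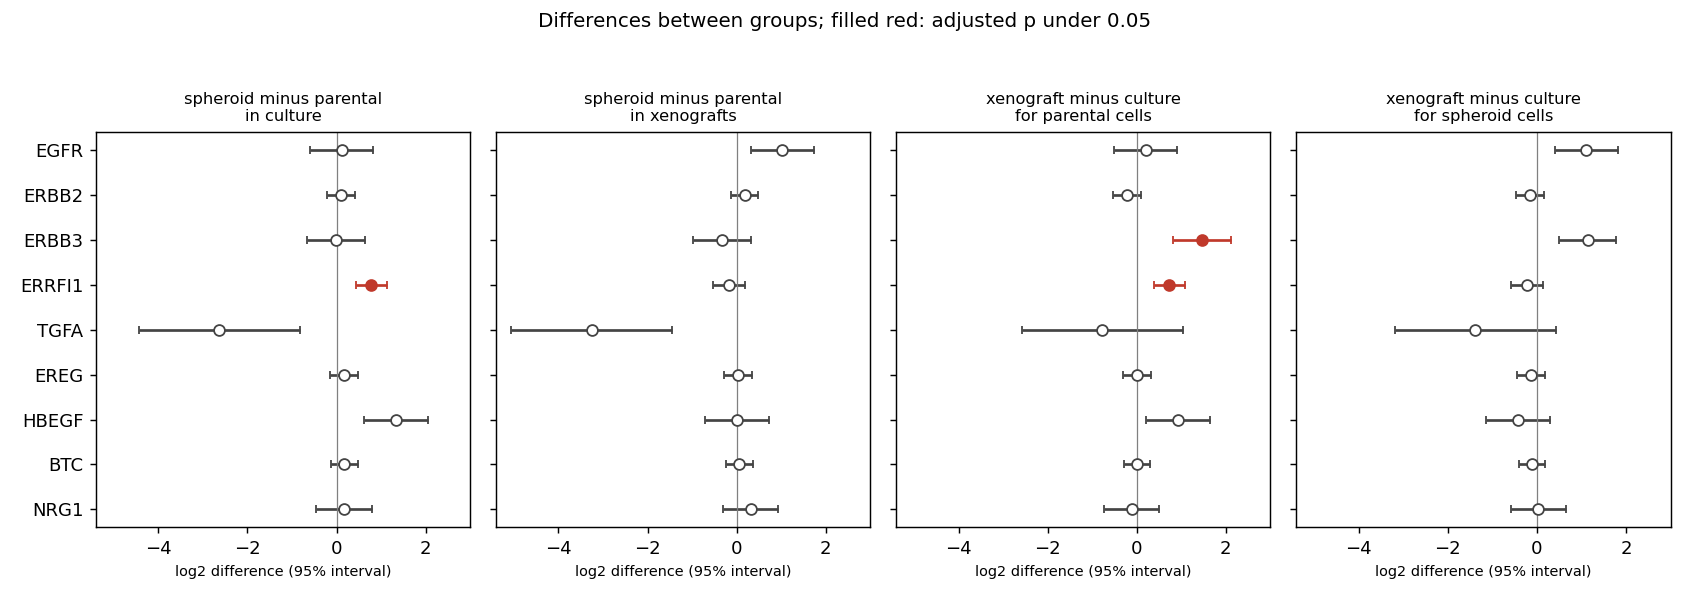
Log2 differences of the 9 genes (rows) in the 4 comparisons of groups (panels, x axis in log2 units), with 95% intervals of the limma fit that are not adjusted for the number of genes; filled red points have an adjusted p under 0.05. ERRFI1 is filled in culture (0.78) and, with ERBB3 (1.46), for parental cells, and TGFA has the widest intervals.

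TGFA, a ligand of EGFR, had the largest differences and the largest spread of the 9 genes. Its brightest probe set, 205016_at, read 4.75, 5.03 and 4.92 in spheroid xenografts and 9.80, 8.78 and 5.87 in parental xenografts. Spheroid culture read 7.64, 6.04 and 5.17, and parental culture 8.56, 9.57 and 8.63. In both pairs all 3 spheroid samples were lower than all 3 parental ones, but parental xenograft replicate 3 was far below the other 2, and the spheroid cultures were spread over more than 2 log2 units. TGFA averaged 6.28 ± 1.25 in spheroid culture and 8.92 ± 0.56 in parental culture (SD, n = 3 arrays each), a difference of -2.64 (SE 0.83, 95% interval -4.44 to -0.83, limma adjusted p = 0.136). Averages were 4.90 ± 0.14 in spheroid xenografts and 8.15 ± 2.04 in parental xenografts, a difference of -3.25 (SE 0.83, 95% interval -5.05 to -1.44, limma adjusted p = 0.181).

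Neither TGFA difference was called, and without parental xenograft replicate 3 both were: -2.64 in culture (adjusted p = 0.0286; range over all alternatives 0.0286 to 0.496) and -4.39 between xenografts (0.0158; range 0.0158 to 0.619). The other 2 TGFA probe sets had the same sign but lower values, -0.43 and -0.20 in culture and -0.54 and -0.56 between xenografts. In xenografts against culture TGFA differed by -0.77 for parental cells and by -1.38 for spheroid cells (SE 0.83 each). Neither difference was called (limma adjusted p = 0.859 and 0.808). In spheroid xenografts TGFA lay below the median of all values on every array.

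NRG1, the ligand of ERBB3, was not called in any comparison by its brightest probe set, 208232_x_at. It averaged 7.30 ± 0.18 in spheroid xenografts, 6.98 ± 0.43 in parental xenografts, 7.26 ± 0.44 in spheroid culture and 7.10 ± 0.45 in parental culture (SD, n = 3 arrays each), and all groups overlapped. Differences between groups lay from -0.11 to 0.32 (SE 0.28 each), with limma adjusted p of 0.868 or more. Another of the 6 NRG1 probe sets, 206343_s_at, behaved otherwise. It read 6.19, 6.65 and 6.70 in spheroid xenografts and 5.37, 8.04 and 8.02 in parental xenografts, 5.79, 5.21 and 5.82 in spheroid culture, and 7.72, 7.66 and 7.29 in parental culture. The 3 spheroid cultures lay below all 3 parental cultures, by -1.95 (SE 0.56, adjusted p = 0.141 over all probe sets), which was not called, and parental xenograft replicate 1 stood apart from the other parental xenografts. Probe set 206237_s_at had the same sign in culture (-0.27, SE 0.11) and between xenografts (-0.40, SE 0.11), and was not called either (adjusted p = 0.375 and 0.344).

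**Figure D3:**
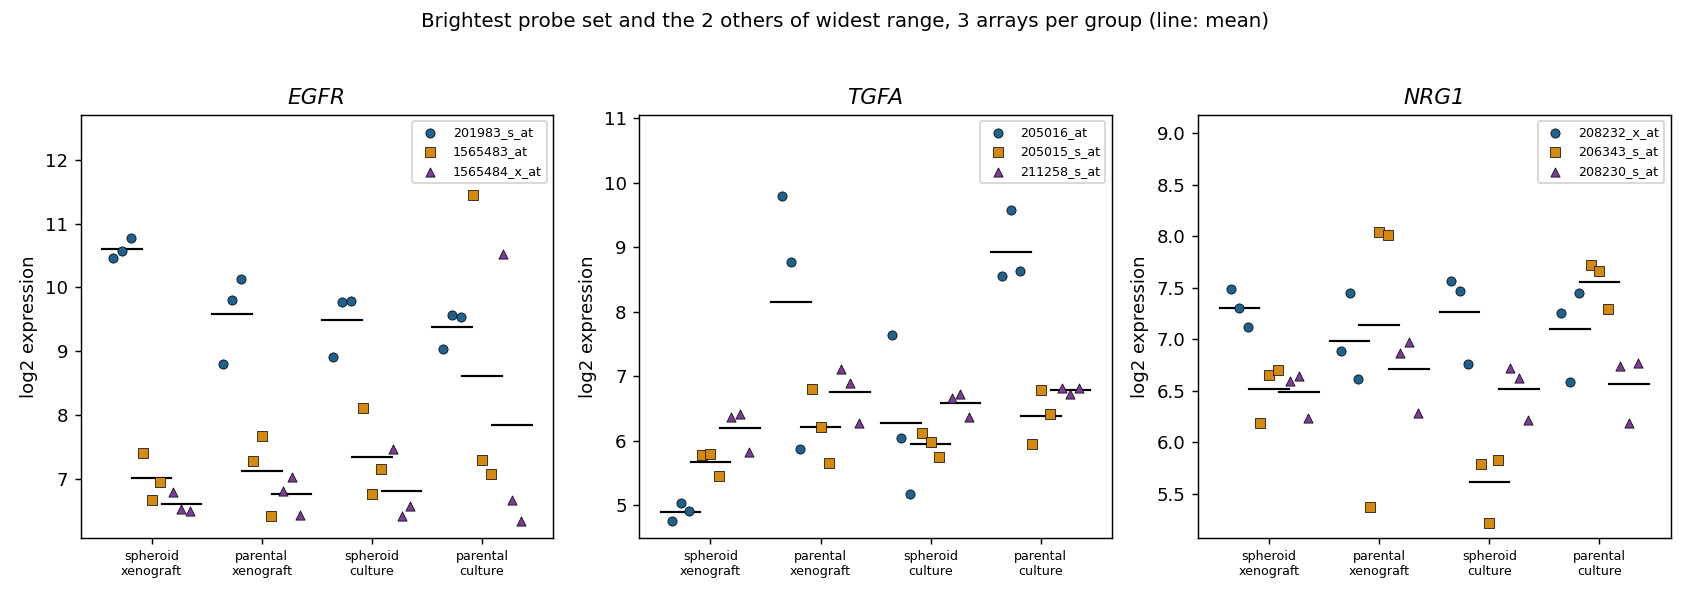
Log2 expression (y axis) of the brightest probe set and the 2 others of widest range of EGFR, TGFA and NRG1 in the 4 groups (x axis), with a symbol for each array and a line at the group mean. Probe sets of 1 gene differ in pattern: 1565483_at and 1565484_x_at of EGFR have 1 array at 11.45 and 10.52, 205016_at of TGFA spans 4.75 to 9.80, and 206343_s_at of NRG1 is low in spheroid culture.

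EREG and BTC, ligands of EGFR and ERBB4, were dim. All 4 of their probe sets lay below the median of all values on every array, and the brightest of BTC stood above at most 8.53% of all probe sets on any array. EREG averaged 5.24 ± 0.087 in spheroid xenografts, 5.21 ± 0.13 in parental xenografts, 5.37 ± 0.069 in spheroid culture and 5.20 ± 0.23 in parental culture (SD, n = 3 arrays each). BTC averaged 3.91 ± 0.21 in spheroid xenografts, 3.85 ± 0.12 in parental xenografts, 4.02 ± 0.046 in spheroid culture and 3.84 ± 0.026 in parental culture. By these probe sets no difference of either gene was larger than 0.17 in either direction, and at such low signal a change could go unseen. The other BTC probe set gave -0.28 for parental cells (SE 0.12, adjusted p = 0.348 over all probe sets). In the RefSeq gene table EREG, AREG and BTC follow each other on chromosome 4, with EPGN, a further ligand, before them.

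**Figure D4:**
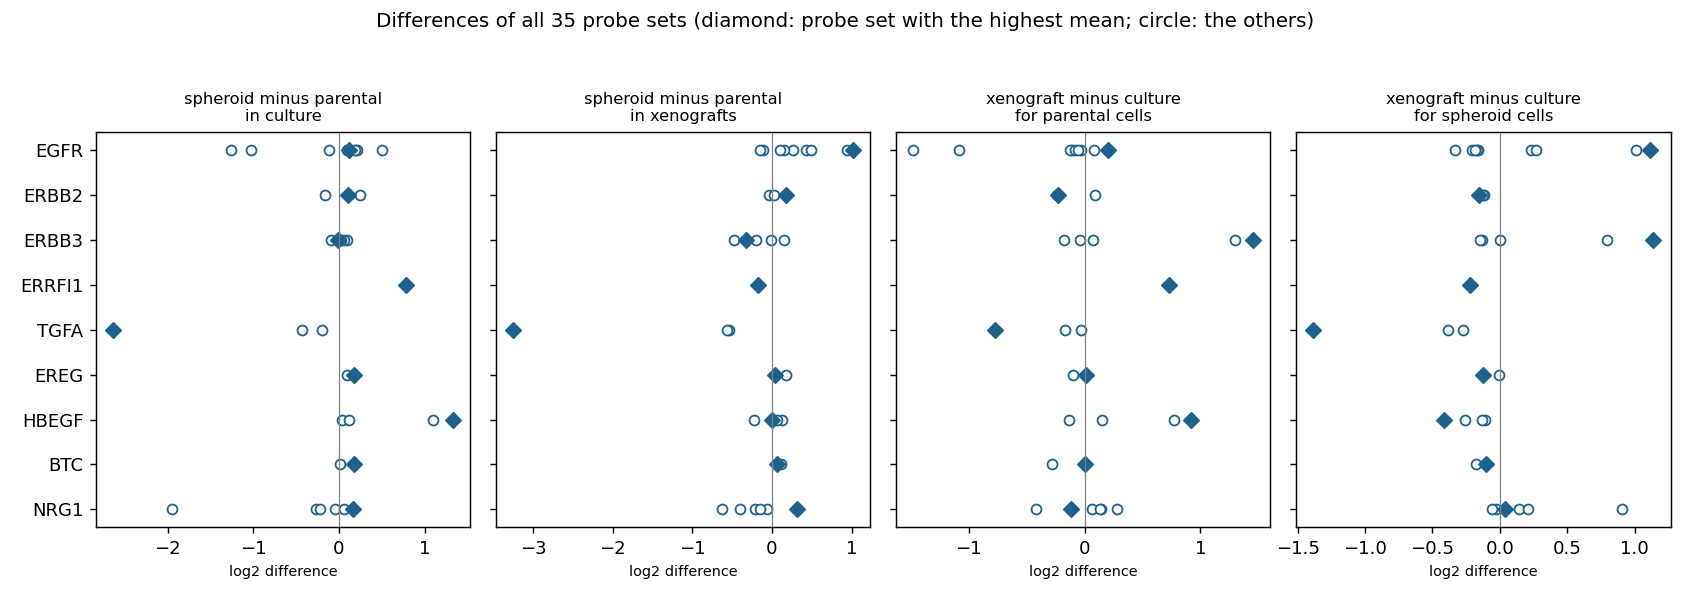
Log2 differences (x axis) of all 35 probe sets of the 9 genes (rows) in the 4 comparisons (panels, each with its own scale); diamonds are the probe sets with the highest mean and circles the others. Of ERBB3 2 probe sets lie near 1.3 to 1.46 for parental cells and 3 near 0, and the EGFR and NRG1 probe sets lie on both sides of 0.

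By probe set, 1 of 35 was called in culture (1.23% of all probe sets), 3 of 35 for parental cells (2.34%), and 0 of 35 between xenografts (0.0897%), for spheroid cells (0.253%) and for the interaction (0.0732%). The 4 calls belonged to ERRFI1, in both comparisons, and to the pair of ERBB3 probe sets. All 3 values of 1 group lay beyond all 3 of the other for 4 of 9 genes in culture (13.8% of all genes), 2 between xenografts (16.5%), 4 for parental cells (13.6%) and 5 for spheroid cells (18.7%). In culture these were ERRFI1, TGFA, HBEGF and BTC, and between xenografts EGFR and TGFA. For parental cells they were ERBB2, ERBB3, ERRFI1 and HBEGF, and for spheroid cells EGFR, ERBB3, ERRFI1, TGFA and EREG.

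Genes around the receptors were taken from 5 lists of the pathway, of which 66 genes were represented. Their calls below stand beside 2.46% of all genes called in culture and 3.47% for parental cells. Among 10 genes of ligand shedding 1 was called, RHBDF1, an inactive rhomboid that carries the protease ADAM17 to the cell surface. It averaged 7.66 ± 0.11 in spheroid culture and 6.82 ± 0.091 in parental culture (SD, n = 3 arrays each), a difference of 0.84 (SE 0.13, limma adjusted p = 0.00767). For parental cells it rose by 0.68 in xenografts against culture (SE 0.13, limma adjusted p = 0.0154). The first call was lost without spheroid culture replicate 2 (0.0521) and the second without parental xenograft replicate 2 (0.0756), and both were lost without parental culture replicates 1 and 2 together (0.0769 and 0.119) and with only the groups compared (0.107 and 0.167). Averaged over its probe sets, the first difference was 0.53. The list had medians of 0.12 in culture and 0.54 for parental cells, beside 0.070 and -0.0091 over all genes.

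Of 20 genes of ERK output and feedback, 1 was called lower in culture, and for parental cells 2 were higher and 1 lower in xenografts. FOSL1, a subunit of AP-1, fell in both: it averaged 10.60 ± 0.17 in spheroid culture and 11.46 ± 0.27 in parental culture (-0.87, SE 0.19, limma adjusted p = 0.0383), and 10.39 ± 0.35 in parental xenografts (-1.08 against parental culture, SE 0.19, limma adjusted p = 0.0121; SD, n = 3 arrays each). The first of these calls held without parental culture replicate 1 or parental xenograft replicate 1 or 3, and was lost without any other array (adjusted p 0.0516 to 0.139), and the second was lost without parental culture replicate 3 (0.0560). The first was also lost with every probe set tested on its own (0.0536), with eBayes set to trend and robust (0.0539) and without parental culture replicates 1 and 2 together (0.0614), and both with only the groups compared (0.154 and 0.132). CCND1, which encodes cyclin D1, rose by 0.82 for parental cells (SE 0.20, limma adjusted p = 0.0468), a call that was kept without parental culture replicate 2 or spheroid xenograft replicate 3 and lost without any other array (0.0539 to 0.188), and that held in 6 of 24 alternatives in all. SPRED2, an inhibitor of the Ras to ERK step, rose by 0.78 (SE 0.17, limma adjusted p = 0.0268), a call lost without parental culture replicate 3, or parental xenograft replicate 1 or 2 (0.0799 to 0.114). It was also lost after median centring (0.0569), quantile normalisation again (0.0756) and cyclic loess (0.0952), with the replicate block (0.0502), with eBayes set to trend and robust (0.0511) and with only the groups compared (0.167). Averaged over its probe sets, the difference was 0.47. The list had medians of 0.092 in culture and -0.015 for parental cells.

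Of 16 adaptors and enzymes 1 was called, PLCG1, a phospholipase that binds activated receptors, which rose by 0.72 for parental cells in xenografts (SE 0.15, limma adjusted p = 0.0236). Its call was lost without parental xenograft replicate 1 or 3 (0.0787 and 0.0802), after quantile normalisation again (0.135) and cyclic loess (0.0906), and with eBayes set to trend and robust (0.0563). It was also lost without parental culture replicates 1 and 2 together (0.159), with only the groups compared (0.187), and when averaged over its probe sets, where the difference was 0.46 (0.106). Of 15 genes of receptor turnover and inhibition 1 was called, SH3KBP1, an adaptor of the ubiquitin ligase CBL in receptor uptake, which averaged 10.38 ± 0.036 in spheroid culture and 11.41 ± 0.41 in parental culture (SD, n = 3 arrays each; -1.03, SE 0.24, limma adjusted p = 0.0474). The call held without parental culture replicate 1 or parental xenograft replicate 1 or 3 and was lost without any other array (0.0675 to 0.172). It was also lost with the replicate block (0.0730), with every probe set on its own (0.0706), without the probe sets whose names end in _x_at or _s_at (0.0531), with eBayes set to trend and robust (0.0502), without parental culture replicates 1 and 2 together (0.0791) and with only the groups compared (0.140). In culture the medians of these 2 lists were 0.024 and 0.27, beside 0.070 over all genes. For parental cells they were 0.19 and 0.46, beside -0.0091. No list was tested as a set. Among the 5 other receptors and ligands of the family that were represented, limma called 0 in any comparison, with at most 1 at an unadjusted p under 0.05 in each. No gene of the 5 lists was called between xenografts, for spheroid cells in xenografts against culture or for the interaction, where from 0 to 6 genes per list had an unadjusted p under 0.05. With the replicate block fitted to the 6 spheroid arrays SH3KBP1 was called, higher in xenografts by 1.00 (adjusted p = 0.0134), as it was with those arrays alone and no block (0.0283).

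**Figure D5:**
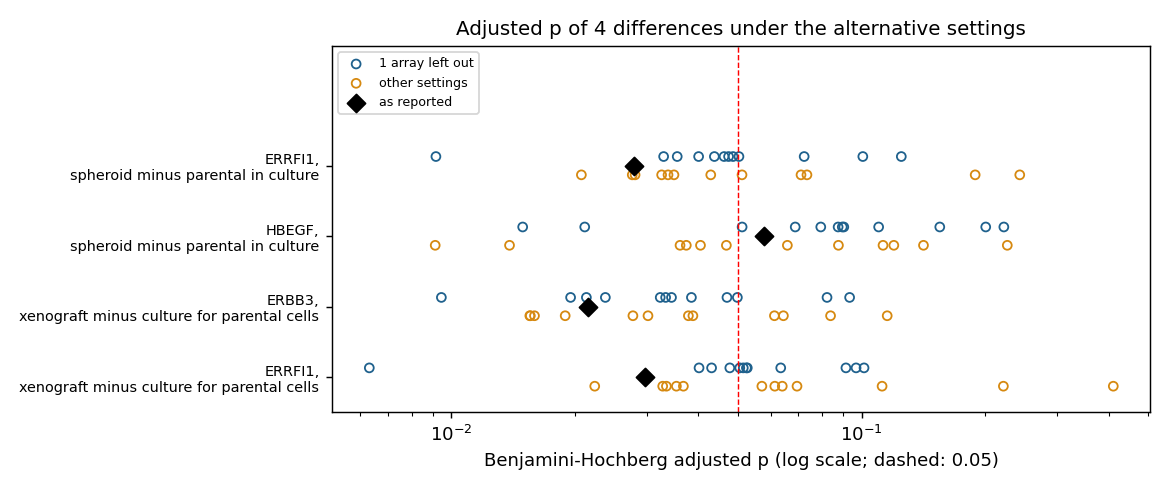
Benjamini-Hochberg adjusted p (x axis, log scale) of 4 differences (rows) as reported (diamonds), with 1 array left out (blue circles) and under the other settings (orange circles). Each row has points on both sides of the threshold of 0.05, and they run from 0.00630 to 0.411.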

How the data were processed

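Per the submitters' processing notes, the deposited log2 values, 1 per probe set and array, were made with RMA and the R package affy. Neither the versions nor joint normalisation of the arrays is stated. That the scale is log2 follows from the range of the values. No depth applies to arrays, and their number limits the precision (median SE 0.20 for a difference).

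Probe sets were named from the platform annotation (41097 with 1 symbol, 1801 with several, 11777 with none), with 41043 symbols updated by gene number from RefSeq. A gene was its probe set with the highest mean. One mean per group was fitted to all 12 arrays with limma 3.58.1 in R 4.3.3 (8 residual degrees of freedom, eBayes), and adjusted p-values run over all genes, or all probe sets where so stated. The fit was tested on simulated data, in which arrays were independent and each gene had the same SD in every group. These data differ in both respects, so that test does not show how the fit performs on them. Tests were two-sided.

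The members, the pathway lists and the rule for naming genes (all members, called list genes, and the 3 genes closest to each called member in pattern) were chosen with earlier results of these data known. The reported fits had no replicate block, and the fits with a block are alternatives. Same-numbered arrays of the groups compared were regarded as possible pairs where the deviations from the group means correlated above 0.1 in every pair. This held between xenografts (r from 0.182 to 0.482) and for spheroid cells (0.333 to 0.431), and not in the comparisons with parental culture. Some arrays of different number deviated together more strongly, as parental culture replicate 2 did with spheroid xenograft replicate 3 (r = 0.636). Both had wide interquartile ranges (3.44 and 3.23). Whether the correlations of same-numbered arrays come from pairing or from the spread of the arrays was not tested.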

Additional observations from a re-analysis of the deposited data

How the results depend on the processing

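Leaving out 1 array at a time gave from 0 to 2 called genes of the 9 in culture (1 as reported), 0 to 1 between xenografts (0), 0 to 3 for parental cells (2), 0 for spheroid cells (0) and 0 to 1 for the interaction (0). In culture the count was 0 after median centring, with only the groups compared in the fit, without parental culture replicates 1 and 2 together, and with the replicate block on only the groups compared. It was 2 after quantile normalisation again, cyclic loess, with the mean of all probe sets, with dim genes left out and with the replicate block. For parental cells the count was 1 after median centring, quantile normalisation again, cyclic loess, with the mean of all probe sets and with eBayes set to trend and robust. It was 0 with only the groups compared, without those 2 arrays, and with the replicate block on only the groups compared. For spheroid cells that last fit, chosen after seeing the data, called 2, EGFR and ERBB3. The replicate block changed no other count of called members. Causes were not tested, and neither was the part of the lower number of samples in the fits on 6 arrays. Over the 1047 values of members under alternatives, 30 lost a call, 14 gained one and 0 reversed. Over 703 values of the named list genes, 78 lost a call and 2 gained one. The number of arrays limits all of these, and no measure of background was used for the dim genes.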
